A study of Drosophila melanogaster with 8 samples.

Results

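The Dpr and DIP families are cell-surface proteins of Drosophila with immunoglobulin domains. Members were taken from the deposited count table as every gene whose FlyBase identifier has a current symbol of dpr with a number or DIP with a Greek letter, a choice made by name and not by measured value. Of 15682 gene rows, 31 met this rule, 21 dpr genes and 10 DIP genes. A further symbol, DIP-lambda, had an identifier outside the gene rows and was not analysed here.

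RNA was sequenced from pooled, dissected eye disc tumours of third-instar larvae. In all samples, clones that expressed activated ras1 and were mutant for csk, the kinase that restrains Src, had been made in the eye epithelium with eyeless-driven FLP recombinase, so cells without the mutation were also part of the animal and could be part of the tissue. There were 4 libraries from larvae on a control diet (CD, 0.15 M sucrose, dissected on day 8) and 4 from larvae raised on high dietary sucrose (HSD, 1.0 M, dissected on day 14), and no library of tumour-free tissue was used here. Diet and age cannot be told apart, because every HSD sample was older. Total counts ranged from 11558860 to 19963565 per library. CD replicate 1 and HSD replicate 4 stood apart from the other 6 on the second principal component of all genes.

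Dpr proteins (named for the defective proboscis extension response of the first mutant) and DIPs (Dpr-interacting proteins) bind each other across cell contacts. Each DIP recognises a small set of Dprs, and neurons and their targets carry different combinations, which are used in choosing synaptic partners, in layer targeting and in the survival of some neurons. In the fly visual system they mark classes of photoreceptors and of optic lobe neurons, and at the larval neuromuscular junction they act between motor neurons and muscles. Most members are best known from neurons, and dpr10 is also known from muscle.

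Most members were far lower in tumours on HSD, and a few were higher. Of 20 dpr genes tested, 17 fell and dpr17 and dpr18 rose, while dpr16 did not pass the test. Of 9 DIP genes tested, 8 fell and DIP-epsilon rose. A gene was called where edgeR's quasi-likelihood test gave an adjusted p under 0.05. By the same rule 26.2% of all 9257 genes tested were lower and 25.9% were higher in HSD. The median log2 fold change, HSD over CD, was -3.66 for dpr genes and -5.01 for DIP genes, beside 0.00091 for all genes tested. The difference between the families was not tested.

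The filter on low counts bears on these numbers. A gene was tested if about 0.574 CPM, counts scaled to a library of 1000000, or more stood in at least 4 libraries. Of the 29 members tested, 9 reached that level in all CD libraries and no HSD library, so they could pass the filter only as genes lower in HSD, and their calls are read as description. Another 9 reached it in all CD libraries and 1 to 3 HSD libraries. All 18 were called lower, as were 71.8% of the 758 genes tested that reached it in all CD but not all HSD libraries, and none of those genes was called higher. The other 11 members reached it in all 8 libraries, and of these 7 were lower and 3 higher, beside 24.0% lower and 29.2% higher among the 7820 genes that did the same. Those 11 are the 3 that rose (dpr17, dpr18 and DIP-epsilon), dpr16, and DIP-alpha, dpr1, dpr7, dpr9, dpr10, dpr12 and dpr19, which fell. Low values carried excess zeros in every library: among genes whose level elsewhere in the same diet predicted 5 to 20 counts, 15.3% to 41.0% were listed at 0, while a Poisson model predicts no more than 0.0917%. A 0 for a weakly counted member is therefore not read as absence.

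**Figure D1:**
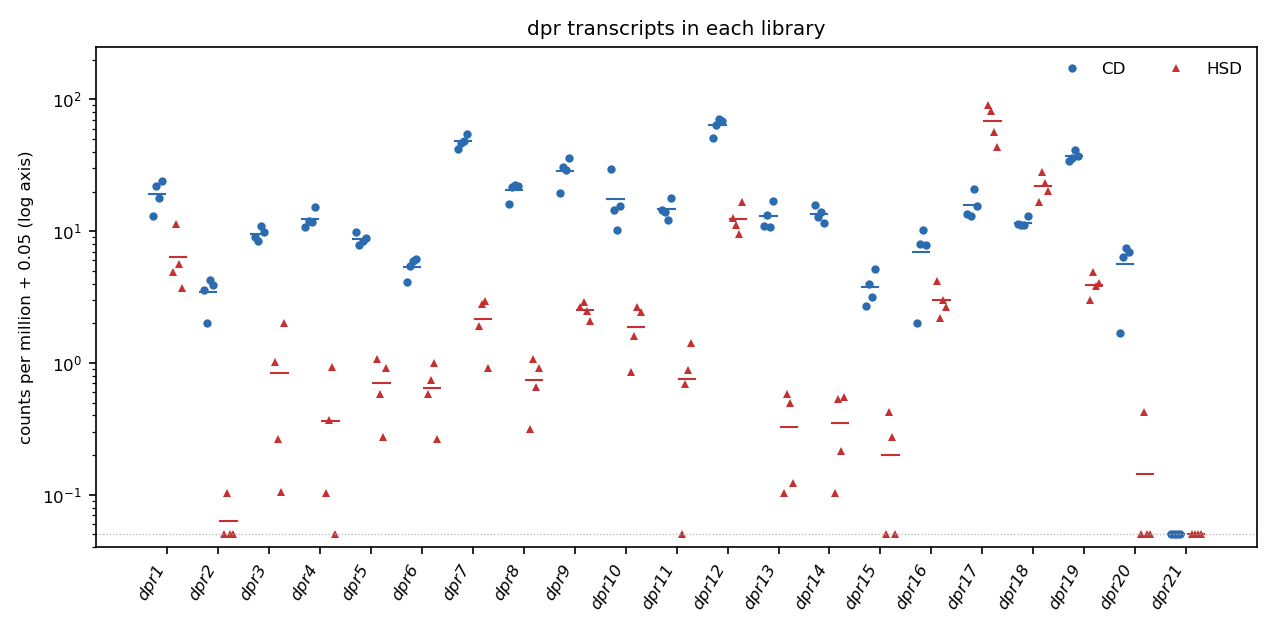
Level of each dpr gene in every library, as CPM plus 0.05 on a log axis, with circles for the 4 CD libraries, triangles for the 4 HSD libraries and lines for the diet means; the dotted line marks 0 counts. The HSD triangles lie above the CD circles for dpr17 and dpr18 and below them for 17 others, overlap them for dpr16, and dpr21 is listed at 0 throughout.

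The largest rise was that of dpr17 (FBgn0051361, chromosome 3R 12094876 to 12111420 in the BDGP6 annotation), a Dpr that binds DIP-gamma. It stood at 13.5, 13.0, 20.7 and 15.6 CPM in CD replicates 1 to 4 and at 90.7, 81.6, 56.9 and 43.7 CPM in HSD replicates 1 to 4. Every HSD library was above every CD library, and the HSD libraries differed among themselves more than the CD ones did. The mean went from 15.7 ± 3.54 to 68.2 ± 21.7 CPM (SD, n = 4 each), and HSD over CD was 2.12 on the log2 scale (edgeR adjusted p = 3.05e-05, SE 0.24).

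The only DIP gene tested to rise was DIP-epsilon (FBgn0259714, chromosome 2L 6377771 to 6411326), which binds several Dprs, dpr18 among them. Its CD values were 12.9, 13.9, 18.3 and 25.7 CPM and its HSD values 44.8, 42.7, 40.1 and 42.8 CPM. The HSD libraries lay close together, and the spread was on the CD side, where replicate 4 was highest. The log2 fold change was 1.26 (edgeR adjusted p = 0.000334, SE 0.20), and without CD replicate 4 it was 1.53.

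The smallest of the 3 rises was that of dpr18 (FBgn0030723, chromosome X 16063738 to 16070304), a ligand of DIP-epsilon. It was measured at 11.2, 11.1, 11.1 and 12.9 CPM in CD and at 16.7, 28.0, 23.0 and 20.3 CPM in HSD. The diets did not overlap, with HSD replicate 1 nearest to the CD values. The log2 fold change was 0.92 (edgeR adjusted p = 0.00170, SE 0.19). With libraries scaled to their cytosolic ribosomal protein genes, which moved the median of all genes to -0.35, it was 0.58 with an adjusted p of 0.0348 by edgeR. Under that scaling dpr17 changed by 1.76 and DIP-epsilon by 0.91, and all 3 stayed past the threshold.

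**Figure D2:**
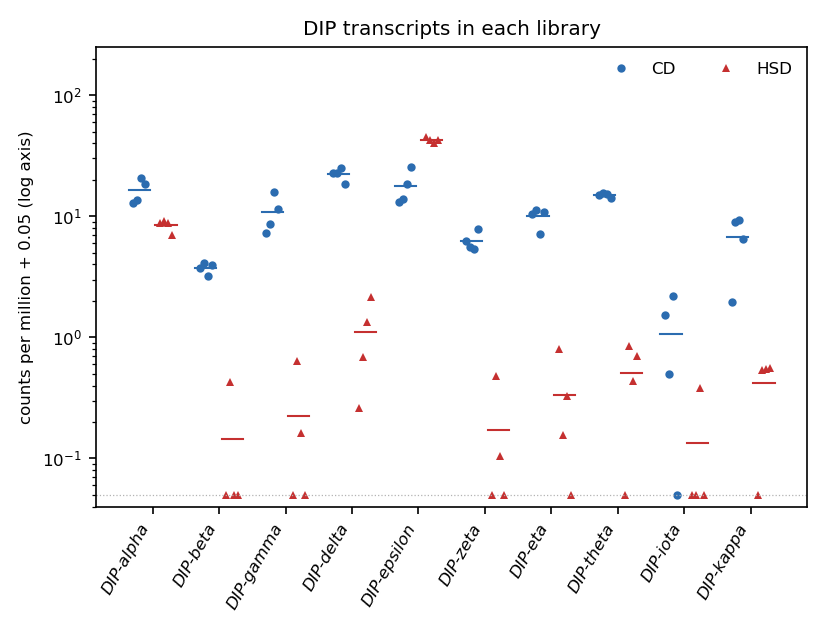
Level of each DIP gene in every library, as CPM plus 0.05 on a log axis, with circles for CD, triangles for HSD and lines for the diet means; the dotted line marks 0 counts. DIP-epsilon is the only DIP whose HSD triangles, 40.1 to 44.8 CPM, lie above its CD circles, and DIP-alpha at 6.99 to 9.13 CPM in HSD is the DIP whose triangles lie nearest below its circles.

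The ligand and receptor values were then set side by side by known binding. DIP-gamma binds dpr11, dpr15, dpr16 and dpr17, and with dpr11 it is known for pairing a class of colour-sensing photoreceptors with their target neurons in the optic lobe. DIP-gamma stood at 7.26, 8.58, 15.9 and 11.5 CPM in CD and at 0, 0.590, 0.111 and 0 CPM in HSD. The diets did not overlap, and the HSD values rest on 11 and 2 counts in replicates 2 and 3, with the others listed at 0. Its exons share 83 bases with CG11828 on the opposite strand. The log2 fold change was -5.83 (SE 0.88), or -7.85 without HSD replicate 2. Its partner dpr11 went from 14.5, 13.9, 12.1 and 17.8 CPM to 0, 0.644, 0.833 and 1.37 CPM, a change of -4.38. The third partner, dpr15, went from a range of 2.64 to 5.10 CPM to at most 0.376 CPM in HSD, a change of -4.53 (-5.45 without HSD replicate 2). In this group dpr17 rose while its DIP and these other ligands fell, and the group's summed level was 39.9 to 62.1 CPM in CD and 47.6 to 94.8 CPM in HSD, ranges that overlapped.

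The remaining ligand of DIP-gamma, dpr16, was the 1 member tested that was not called. It was at 1.98, 7.90, 10.1 and 7.81 CPM in CD and at 4.16, 2.15, 2.94 and 2.59 CPM in HSD. CD replicate 1 was below all HSD libraries, and the other CD libraries were above all of them. The log2 fold change was -1.23 (edgeR adjusted p = 0.0572, SE 0.49), and without CD replicate 1 it was -1.51 with an adjusted p of 0.00431. An exon of dpr16 shares 118 bases with cno on the opposite strand in the BDGP6 annotation. The strand setting of the counting was not given in the sources used here, so some dpr16 counts could belong to cno.

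DIP-epsilon and DIP-zeta share the ligands dpr13, dpr14, dpr18, dpr19 and dpr20. DIP-zeta moved against DIP-epsilon: it was at 6.18, 5.53, 5.27 and 7.75 CPM in CD and at 0, 0.429, 0.0556 and 0 CPM in HSD. That fall was -5.53 on the log2 scale (SE 0.96), or -7.83 without HSD replicate 2, which held 8 of its 9 HSD counts. DIP-zeta reached the filter level in no HSD library, so its call is description. An RNA gene on the opposite strand shares 133 bases of its exons. The ligands apart from dpr18 also fell. The most abundant of them per kilobase of exon, dpr19, went from 34.0, 35.6, 41.4 and 37.3 CPM to 2.93, 4.83, 3.78 and 3.96 CPM, and its values were even within each diet. Its log2 fold change was -3.26 (edgeR adjusted p = 3.44e-07, SE 0.18), the smallest adjusted p of all members.

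The other ligands of this group were low in HSD. The level of dpr14 fell from between 11.4 and 15.8 CPM to at most 0.504 CPM, a log2 fold change of -5.48. The level of dpr13 fell from between 10.7 and 16.8 CPM to at most 0.537 CPM, a change of -5.47. For dpr20 the CD libraries were at 1.65, 6.32, 7.47 and 6.96 CPM, with replicate 1 far below the rest, and HSD replicate 2 held all 7 HSD counts. Its fitted change was -5.73, and without HSD replicate 2 it came to 30.9-fold lower, taking 3 counts per library as the floor. Given the excess zeros, that figure is not a lower bound. Per kilobase of exon, the ratio of dpr18 to DIP-epsilon was 0.603 to 1.04 in CD libraries and 0.446 to 0.785 in HSD libraries, so these ranges overlapped. In every HSD library dpr18 was below DIP-epsilon.

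DIP-alpha binds dpr6 and dpr10, and this set is known from motor neurons and muscle as well as from the optic lobe. DIP-alpha fell least of the members that fell, from 12.8, 13.5, 20.8 and 18.3 CPM to 8.75, 9.13, 8.72 and 6.99 CPM. The diets did not overlap, and the log2 fold change was -0.96 (edgeR adjusted p = 0.00359, SE 0.22). Its exons share 158 bases with CG2875 on the same strand and 106 bases with ppk8 on the other, so a part of its counts is uncertain. Its ligands fell further. For dpr10 the values were 29.4, 14.4, 10.1 and 15.6 CPM in CD and 0.80, 1.56, 2.61 and 2.38 CPM in HSD, a change of -3.24, with CD replicate 1 highest. For dpr6 they were 4.04, 5.36, 5.94 and 6.05 CPM in CD and 0.533, 0.698, 0.945 and 0.216 CPM in HSD, a change of -3.13.

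DIP-delta and its ligand dpr12, a pair known from axon wiring in the mushroom body, also differed in how far they fell. In CD dpr12 was at 51.3, 63.8, 71.3 and 68.2 CPM, and it remained at 12.6, 11.2, 9.45 and 16.5 CPM in HSD. Its log2 fold change was -2.36 (edgeR adjusted p = 1.84e-06, SE 0.18). DIP-delta stood at 22.6, 22.5, 25.0 and 18.3 CPM in CD and at 0.213, 0.644, 1.28 and 2.09 CPM in HSD. Its change was -4.41 (edgeR adjusted p = 3.42e-05, SE 0.51). Per kilobase of exon, dpr12 stood 2.32 to 3.80 times above DIP-delta in CD and 7.55 to 60.3 times above it in HSD. These ranges did not overlap, and the highest HSD ratio rests on the 4 counts of DIP-delta in HSD replicate 1.

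DIP-beta binds dpr8, dpr9 and dpr21. DIP-beta was at 3.71, 4.06, 3.14 and 3.93 CPM in CD, and in HSD all of its 7 counts were in replicate 2. The fitted log2 fold change was -5.14 (SE 1.11). DIP-beta reached the filter level in no HSD library, so its call is description. Without HSD replicate 2 DIP-beta came to 20.5-fold lower by the same floor, which is likewise not a lower bound. Its ligand dpr9 kept a measurable level, from 19.5, 30.8, 29.2 and 35.6 CPM in CD to 2.61, 2.84, 2.44 and 2.02 CPM in HSD, a change of -3.53. The ligand dpr8 fell further, from a range of 15.9 to 22.4 CPM to a range of 0.267 to 1.02 CPM, a change of -4.89. The third ligand, dpr21, was listed at 0 in all 8 libraries and was not tested.

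DIP-eta, DIP-theta and DIP-iota bind dpr1 to dpr5. DIP-theta was even across CD, at 14.9, 15.5, 15.1 and 14.1 CPM, and stood at 0, 0.805, 0.389 and 0.649 CPM in HSD, a change of -5.01 (SE 0.64). Its exons share 363 bases with a non-coding RNA gene on the same strand, so a part of its counts is uncertain. DIP-eta went from between 7.14 and 11.3 CPM to at most 0.747 CPM, a change of -5.05, or -6.12 without HSD replicate 1. DIP-iota was too low to test, with 18, 8, 32 and 0 counts in CD and 6 counts in HSD, all in replicate 3.

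Of the ligands of these 3 DIPs, dpr1 fell least. This gene gave the family its name through a mutant defect in salt aversion. It was at 13.1, 22.1, 17.7 and 23.8 CPM in CD and at 4.85, 11.3, 5.61 and 3.68 CPM in HSD, where replicate 2 came near the lowest CD library. The log2 fold change was -1.59 (edgeR adjusted p = 0.00290, SE 0.35). At the other end was dpr2, the member with the largest fitted fall, at 1.97 to 4.2 CPM in CD against 1 count in HSD, in replicate 2. The ratio of CD to HSD from the summed counts, 213 against 1, was 232 with an exact 95% interval of 41.1 to 9193 that covers counting error only. Without HSD replicate 2, dpr2 came to 18.7-fold lower in HSD, taking 3 counts per library as the floor, again not a lower bound. Between these lay dpr3 at -3.60 (-4.50 without HSD replicate 4), dpr4 at -5.22 (-6.45 without HSD replicate 3) and dpr5 at -3.71 on the log2 scale. In dpr4, 469 bases of exon lie opposite an antisense RNA gene, so its counts are uncertain.

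The partners of dpr7 and DIP-kappa are left out here. Per kilobase of exon dpr7 was the most abundant of all members in CD, and its values went from 42.1, 46.7, 48.5 and 54.5 CPM to 1.87, 2.74, 2.89 and 0.865 CPM. The CD libraries were even and the diets far apart, with a log2 fold change of -4.50 (edgeR adjusted p = 7.92e-07, SE 0.30). DIP-kappa was at 1.90, 8.97, 9.21 and 6.48 CPM in CD and at 0, 0.483, 0.500 and 0.504 CPM in HSD, a change of -4.15. CD replicate 1 was far below the other CD libraries for DIP-kappa, as it was for dpr16 and dpr20.

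**Figure D3:**
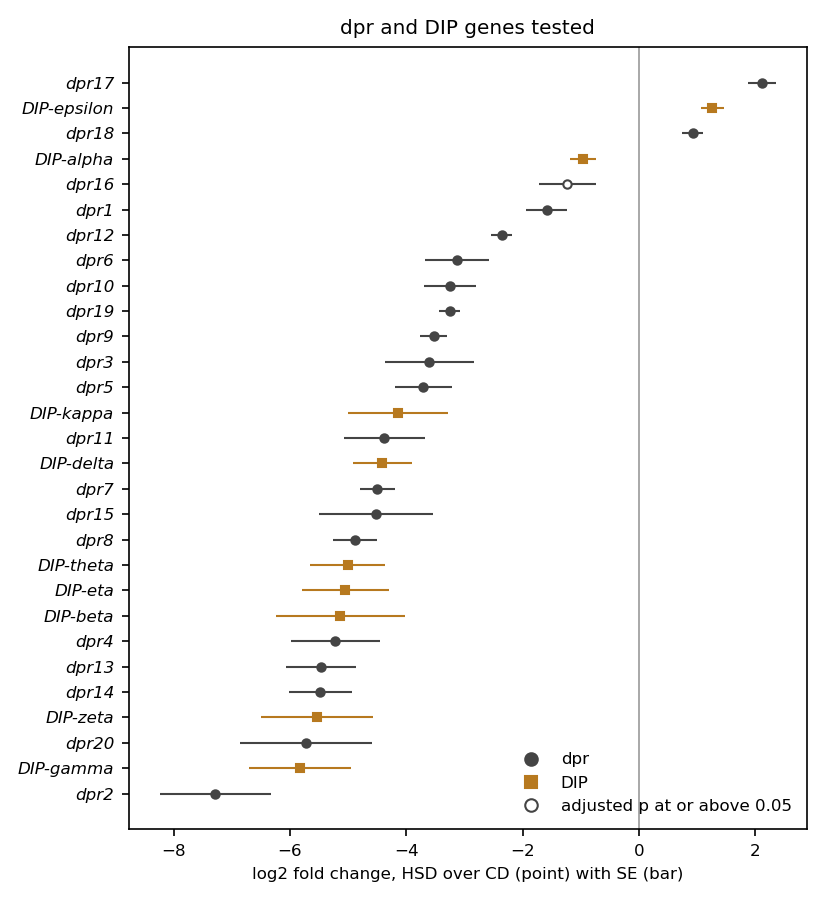
Log2 fold change, HSD over CD, of the 29 members tested, with bars for the standard error, circles for dpr genes and squares for DIP genes; the open circle is the member with an adjusted p above 0.05. The points run from dpr2 at -7.28 to dpr17 at 2.12, with DIP-epsilon and dpr18 as the only others to the right of 0.

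Fitted falls of the weakest members rest on few reads and on the prior count of the fit. In HSD, 17 members were under 1 CPM on average, and 11 of those that fell, 5 dpr and 6 DIP genes, were listed at 0 in at least 1 HSD library. In CD no member tested was under 1 CPM on average or at 0 in any library. The CD and HSD ranges did not overlap for 28 of the 29 members tested, beside 50.5% of all genes tested. For the 9 members that reached the filter level in all CD and no HSD library, this was fixed by the filter. Of all genes tested, 84.5% reached that level in all 8 libraries, so these shares cover unlike genes. Among the 11 members that did so, only dpr16 overlapped.

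The order of levels changed with diet. On the scale of CPM per kilobase of exon, the highest means in CD were 31.7 ± 3.39 for dpr7, 13.8 ± 1.20 for dpr19 and 13.5 ± 1.87 for dpr12 (SD, n = 4 each), and those of dpr19 and dpr12 were within their spread of each other. In HSD the highest were 15.2 ± 4.85 for dpr17, 13.5 ± 0.618 for DIP-epsilon and 8.36 ± 1.82 for dpr18, and the first pair was again within its spread. In CD these 3 had ranked number 15, 5 and 11 of the 31 members. The next in HSD was dpr12 at 2.64 ± 0.639.

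The makeup of each family by this measure shifted in every library. The share of the summed dpr level held by dpr17 was 2.53% to 3.85% in CD and 35.2% to 56.0% in HSD, and that of dpr18 was 3.51% to 4.11% and 17.5% to 27.8%. The share of dpr7 went the other way, from between 26.6% and 27.8% to between 2.06% and 6.01%. DIP-epsilon held 16.1% to 26.5% of the summed DIP level in CD and 87.0% to 91.8% in HSD. For DIP-alpha the shares overlapped between diets, at 5.47% to 7.22% and 5.14% to 6.65%. Such shares are relative within a family, and part of each shift comes from the fall of the other members.

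**Figure D4:**
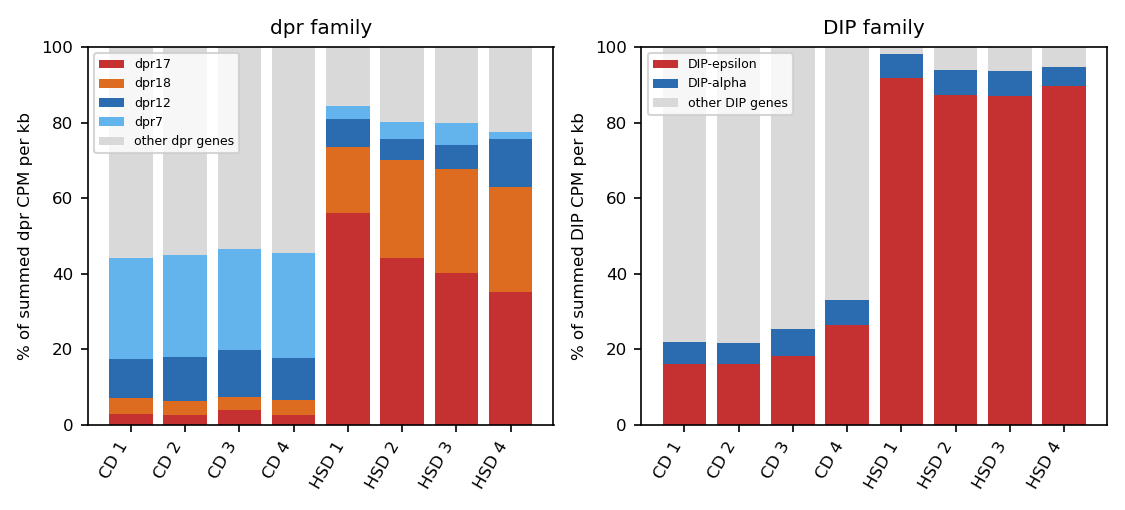
Share of the summed level, in percent of CPM per kilobase of exon, held by named members of the dpr family (left) and the DIP family (right), with a bar for each library. In HSD dpr17 and dpr18 make up most of the dpr bar and DIP-epsilon 87.0% to 91.8% of the DIP bar.

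Summed over the family, dpr genes took 315 to 395 CPM in CD and 102 to 151 CPM in HSD, and DIP genes 94.2 to 122 CPM and 51.7 to 55.3 CPM. Without dpr17 and dpr18 the dpr sum went from a mean of 331 ± 31.8 to 36.6 ± 4.09 CPM (SD, n = 4 each), 9.04-fold lower. Without DIP-epsilon the DIP sum went from 91.6 ± 9.20 to 11.04 ± 1.31 CPM, 8.30-fold lower. The summed counts of dpr over DIP were 3.04 to 3.38 in CD libraries and 1.92 to 2.74 in HSD libraries, and 3.27 to 4.02 and 2.92 to 3.70 with those 3 genes left out of both sums. The first pair of ranges did not overlap and the second did. These sums describe members chosen with their results known and carry no test.

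Markers of neurons moved with these falls. All 16 neuronal markers on the list were lower in HSD, beside 26.2% of all genes tested, with a median log2 fold change of -4.34. Their sum went from between 2554 and 3067 CPM to between 182 and 294 CPM, 11.3-fold lower. Of the 25 members that fell, the mean CPM of 19 was lower by more than that factor and that of 6 by less. Those 6 were DIP-alpha, dpr1, dpr6, dpr10, dpr12 and dpr19. Of the 19, only dpr7 and dpr9 reached the filter level in all HSD libraries. The others passed the filter through CD, so this count is description. The factor is also that of a sum, weighted to its most abundant markers, and the median marker fell by more. None of the neuronal markers was at 0 in all HSD libraries, and Gad1 and ChAT were at 0 in at least 1. Fewer neurons and less RNA per neuron cannot be told apart in bulk tissue. The part of neuronal content in the falls of the dpr and DIP genes was not tested.

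**Figure D5:**
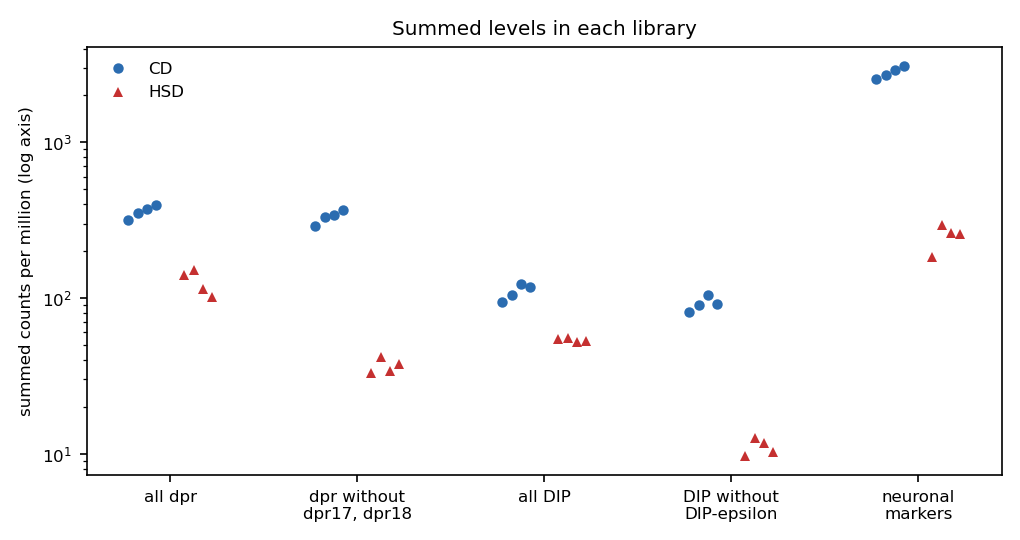
Summed CPM in each library on a log axis for the dpr genes, the dpr genes without dpr17 and dpr18, the DIP genes, the DIP genes without DIP-epsilon and the 16 neuronal markers, with circles for CD and triangles for HSD. With all members kept, the dpr sum is 2.83-fold and the DIP sum 2.04-fold lower in HSD. With the 3 risen genes left out, a choice made from these same data, both families are 8.30-fold to 9.04-fold lower. The neuronal markers, with none left out, are 11.3-fold lower.

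Other cell types on the lists moved less evenly. Over all genes tested, 26.2% were lower and 25.9% were higher. Of 9 photoreceptor markers tested, all were lower, with a median of -2.13, and sev, a receptor of developing photoreceptors, changed by -2.47. The gene gl, a transcription factor of photoreceptors, was counted on both diets and went from 194 ± 25.3 to 40.3 ± 10.3 CPM (SD, n = 4 each). Of the genes of mature photoreceptors, trp and ninaE were too low to test. In HSD, ninaC, trp and ninaE were at 0 in some library, and 1 of these was at 0 in all 4. In CD, 2 of the photoreceptor markers were also at 0 in some library. Neuroblast markers had 7 lower and 1 higher, pros at -5.75 and insc at 1.32 on the log2 scale. Glial markers had 6 lower and 3 higher, with a median of -1.75 and like sums in CD (1026 to 1126 CPM) and HSD (984 to 1124 CPM). Much of both sums was nrv2 (336 CPM in CD, 334 CPM in HSD) and Gli (258 and 341 CPM). Like sums therefore do not show like glial content. The lower markers included gcm, a transcription factor of glia, at -4.20, Gs2 at -3.99, Eaat1 at -3.74 and wrapper at -2.46. The higher were moody, a receptor of the blood-brain barrier, at 1.38, loco at 0.57 and Gli at 0.40. Of 8 muscle markers tested, 4 were lower and 2 higher, and their sums overlapped, at 416 to 508 CPM in CD and 381 to 508 CPM in HSD. Much of both sums was sls (213 CPM in CD, 226 CPM in HSD). Like sums therefore do not show like muscle content. The lower were the myosin heavy chain gene Mhc at -2.50, Act57B at -2.30, up at -2.1 and Tm2 at -2.03. The higher were the light chain gene Mlc2 at 0.93 and bt at 1.08. The part of these cell types in the levels of dpr and DIP genes was not tested.

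Related surface proteins are given for comparison, from the same fit and with no test of one list against another. In that fit 26.2% of all genes tested were lower and 25.9% were higher. The Beat and Side families are another set of immunoglobulin ligands and receptors of axons. All 13 Beat genes tested were lower, with a median of -5.26, and beat-Vc had the largest fitted fall at -7.34. In HSD beat-Va, beat-Vb and beat-Vc averaged 0.0963, 0.0939 and 0.0134 CPM, under the filter level, so they passed it through CD. Falls of listed genes under that level in HSD are description. Of 8 Side genes, 7 were lower, led by side-VIII at -5.72, and side-V was higher at 1.05. Among 5 immunoglobulin genes close to the Dprs and DIPs, klg at -4.14, CG7166 at -3.83 and CG34353 at -3.29 were lower and CG13506 was higher at 0.80. The fifth, Lac, named after its values were seen, did not pass the test, with 435 ± 16.6 CPM on CD and 433 ± 15.4 CPM on HSD (SD, n = 4 each). Of 29 other adhesion genes of neurons, many of them also used in epithelia, 16 were lower and 6 higher. Among the lower were kek3 at -5.19 and Con at -4.01. The higher were sns at 1.00, sdk at 0.80, kek1 at 0.74, caps at 0.66, Fas2 at 0.64 and trn at 0.35. A secreted protein that binds many Dprs and DIPs, cDIP, had 4 counts in all and was not tested.

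Members that lie next to each other in the genome did not all move alike. By the BDGP6 annotation, whose build is not that of the alignment, dpr17 and dpr15 lie 27.4 kb apart on chromosome 3R with 1 coding gene between them, and dpr17 rose by 2.12 while dpr15 changed by -4.53 on the log2 scale. The neighbours dpr6 and dpr10, 8.1 kb apart on 3L with no coding gene between, changed by -3.13 and -3.24. DIP-eta and DIP-theta, 8.3 kb apart on 2L, changed by -5.05 and -5.01. For dpr5 and dpr4, 27.5 kb apart on 3R, the changes were -3.71 and -5.22. On 2L, DIP-epsilon rose and DIP-iota, 205.8 kb away, was too low to test.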

How the data were processed

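Per the labels and the study's methods, the authors trimmed reads with Trim Galore 0.4.4, aligned them to dm3 with TopHat2 2.0.11 and counted them per gene with featureCounts. The kit was stranded, but the strand setting of the counting and the handling of reads with several alignments are not given in the sources used here. The deposited values are raw counts per gene, not normalised. Libraries were assigned by the names in their labels. The study describes the replicates of each diet as independent biological samples, each of pooled tissue.

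The diets were compared by edgeR 4.0.16 (R 4.3.3) over 9257 genes that passed filterByExpr, with TMM scaling, a two-sided quasi-likelihood test on diet and Benjamini-Hochberg adjustment over all genes tested. CPM are counts scaled to a TMM-adjusted library size of 1000000, and the SE is the log2 fold change over the square root of F. Symbols came from a gene name table that held 15002 of 15682 identifiers. Exon lengths, positions and overlaps came from BDGP6. The test was checked on simulated counts. These were drawn without excess zeros, so the check does not cover weakly counted members. Alternatives used limma 3.58.1 and DESeq2 1.42.0.

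All dpr and DIP genes are named, and of each other list at most 4 genes with the largest change plus those called against the rest. Lac, nrv2 and sls were named besides these, after their values were seen. Members, binding groups and marker lists were chosen with earlier results of these data known. Replicate numbers did not pair the libraries.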

Additional observations from a re-analysis of the deposited data

Results flagged for a closer look

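Within each diet, a library was picked out where the gap between the lowest or highest value and the next, divided by the range of the 4 libraries, was above the critical value of Dixon's test at the 95% level. This was applied to log2 CPM of the members tested, to the summed levels of both families and to total counts, 64 groups in all, and 11 passed, where chance gives about 3.2.

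CD replicate 1 was lowest for dpr8 (ratio 0.908, 15.9 CPM), dpr16 (0.837, 1.98 CPM) and dpr20 (0.887, 1.65 CPM). HSD replicate 2 was the highest HSD library, and the only one with counts, for DIP-beta (ratio 1.0, 7 counts), dpr20 (1.0, 7 counts) and dpr2 (1.0, 1 count). HSD replicate 4 was lowest for DIP-alpha (0.831, 6.99 CPM) and for total counts (0.838). HSD replicate 1 was lowest for DIP-kappa (0.979, 0 counts), CD replicate 3 for DIP-eta (0.836, 7.14 CPM), and CD replicate 4 was highest for dpr18 (0.941, 12.9 CPM).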

How the results depend on the processing

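The counts of 17 lower dpr genes, 8 lower DIP genes and 3 higher members stayed within 1.5 times under every alternative but the filter of at least 10 counts in every library. That filter left 9 dpr and 2 DIP genes, of which 7 dpr and 1 DIP genes were lower. Leaving out each library gave 17 to 18 lower dpr genes, 8 lower DIP genes and 3 higher members, and 4387 to 4999 genes called in all. No gene followed through the alternatives reversed, which covers all members tested but not every list gene named. All members that were called kept their call wherever they were tested. dpr16 was called lower with upper quartile scaling (-1.29), total counts alone (-1.36), ribosomal protein scaling (-1.58), at least 10 counts in every library (-1.27) and DESeq2 (-1.26), and without CD replicate 1 and HSD replicate 4 together (-1.46), a setting chosen after seeing the data. Of all calls, 49.8% were higher on the TMM scale, 38.1% with total counts alone, where the median of all genes was -0.13, and 21.0% with ribosomal protein scaling. The replicate block gave 17 lower dpr genes, 8 lower DIP genes and 4609 calls in all and changed no member's call. Same-numbered libraries correlated at -0.152 to 0.0748, so the numbers were not read as pairs. Depth limits the HSD values of members under 1 CPM.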
